A study of Mus musculus with 4 samples.

Results

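miR-139 and miR-582 are microRNAs (miRNAs) cut from introns of phosphodiesterase genes, miR-139 from Pde2a and miR-582 from Pde4d. Their members here are the 4 mature arms whose names in the deposited miRNA table are those of these hairpins: mmu-miR-139-5p, mmu-miR-139-3p, mmu-miR-582-5p and mmu-miR-582-3p. They are 4 of the 1038 miRNAs listed, and all 4 are among the 719 that were tested, having 5 reads or more in 1 library or more. The rule of choice used the names and the host genes and no measured value, though earlier results of these data were known. Small RNA was sequenced from the medial prefrontal cortex (mPFC) of C57BL/6 mice (C57BL/6J in the study's methods), in 2 libraries from controls and 2 libraries from mice under chronic unpredictable mild stress (CUMS). All were males with no transgene, juvenile at the start. The tissue was taken weeks later, after adaptation, the period of stress or control housing, and the behaviour tests. The stressed mice were isolated and met tilted, empty or damp cages, restraint, noise, strobe light and shifted light cycles in random order, and the controls lived without these stresses. The CUMS group holds only stressed mice that changed in sucrose preference, Y-maze and forced swimming tests, so it is a selected subset of the stressed animals. The comparison asks whether these intronic miRNAs differ in the mPFC between depression-like and control mice. The labels do not give the number of mice in a library, so the p-values below measure only the spread between libraries.

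Phosphodiesterases break down the second messengers cAMP and cGMP and so end the signals that neurotransmitter receptors start through them. PDE2A hydrolyses both messengers and is stimulated by cGMP, whereas PDE4D is specific for cAMP and belongs to the family that rolipram inhibits. A miRNA in an intron can be transcribed with its host. Drosha cuts the hairpin out of the primary transcript, Dicer removes the loop, and one arm or the other is loaded into an Argonaute protein, where bases 2 to 8, the seed, pair with sites in messenger RNAs.

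The mature arms are shown because arm and seed are what the results compare. They are RefSeq sequences on GRCm38.p6, 5′ to 3′, with the seed in capitals.
mmu-miR-139-5p: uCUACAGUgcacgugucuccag
mmu-miR-139-3p: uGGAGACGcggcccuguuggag
mmu-miR-582-5p: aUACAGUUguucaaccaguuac
mmu-miR-582-3p: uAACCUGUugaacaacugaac
The seeds of miR-139-5p and miR-582-5p share the 6 letters UACAGU, at bases 3 to 8 of miR-139-5p and bases 2 to 7 of miR-582-5p. The other pairs of members share no run of more than 2 seed letters. The reads were allowed to be offset against the mature miRNA when they were counted, so the capitals mark the seed of the RefSeq sequence and not of every read. The miRBase release behind the counts is not given in the sources used here. A counted entry, such as that of miR-582-3p, may thus start at another base than the RefSeq sequence.

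The hairpins show how the arms sit in their precursors, with the mature arms in capitals.
Mir139: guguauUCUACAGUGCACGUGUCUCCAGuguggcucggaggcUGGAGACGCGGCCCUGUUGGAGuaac
Mir582: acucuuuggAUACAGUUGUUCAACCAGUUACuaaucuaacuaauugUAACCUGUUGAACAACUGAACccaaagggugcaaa
Mir139 lies at chr7:101475376-101475443 and Mir582 at chr13:109324744-109324824, both on the plus strand, which is the strand of their hosts. Of the 719 tested miRNAs, 622 could be matched to a RefSeq position, and among these no other lies inside a gene for a cAMP or cGMP phosphodiesterase on its own strand in GENCODE M21.

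The hosts place the hairpins differently among their transcripts. Pde2a spans chr7:101421691-101512827, and Mir139 lies in intron 2, of 29902 bp, in all 4 of its coding transcripts. The annotated gene Gm45837 also covers Mir139 on the same strand. Pde4d spans chr13:108449948-109953461, which is 1503514 bp against 91137 bp for Pde2a. Of the 12 coding transcripts of Pde4d, 4 span Mir582, which then lies in an intron of 479441 to 707689 bp. The other 8 start 117439 to 610568 bp downstream of the hairpin and cannot contain it. Thus every annotated coding transcript of Pde2a could carry miR-139, and 4 of 12 of Pde4d could carry miR-582. No mRNA levels of the hosts were analysed here.

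**Figure D1:**
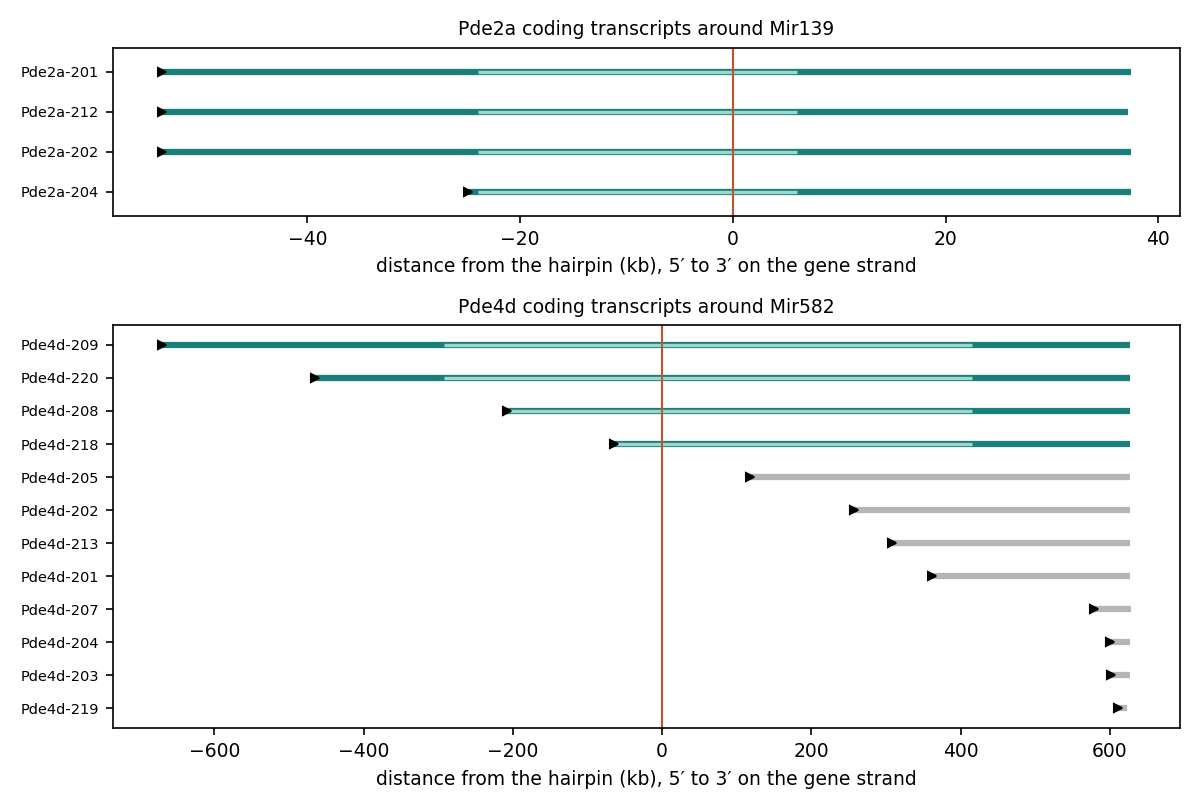
Coding transcripts of Pde2a and Pde4d (GENCODE M21), drawn to scale as distance in kb from the hairpin (vertical line), with arrowheads at transcript starts. Transcripts that span the hairpin are green, with the intron that holds it as the light stripe, and those that start downstream are grey. The line crosses all 4 transcripts of Pde2a and 4 of 12 of Pde4d.

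The libraries held 10533646 and 10783592 reads on known miRNAs in controls and 10427625 and 9589323 in CUMS. Control library b differed from the rest in that 9.32% of its reads came from the miR-183 and miR-200 clusters, against 0.0393% to 0.0722% in the other libraries. Reads were therefore divided by size factors, which do not depend on a few abundant miRNAs, and the values without this library are given beside the results. In terms of tissue markers, 5 neuronal miRNAs such as miR-124-3p and miR-9-5p summed to 724841 to 851273 normalised reads, that is reads divided by the size factor, in controls and 815532 to 960087 in CUMS. The 3 of microglia and other immune cells summed to 1234 to 1430.05 and 1396 to 1632, the 4 of red cells to 230239.9 to 239345 and 228517 to 269539, the 4 of endothelium and mural cells to 222994 to 311305 and 217675 to 308162, and the 8 of sensory or epithelial cells to 4047 to 1004812 and 4936 to 7329, and the groups overlapped in these 5 lists. They did not overlap for the 4 oligodendrocyte miRNAs found (7731 to 8210 in controls and 6038 to 7203 in CUMS), the 2 of choroid plexus (16941 to 22015 and 12627 to 15959) and the 3 found of liver and muscle (226 to 348 and 195 to 198), which were lower in CUMS. On the CPM scale, that is reads scaled to a common library total, which the cluster reads of control library b enter, the neuronal, immune and red cell lists were higher in both CUMS libraries. Each sum was mostly that of its most-read markers. For miR-124-3p, nearest in pattern to miR-139-3p below, normalised reads were 25922 and 23143 in controls and 29393 and 35217 in CUMS, without overlap. The other neuronal markers overlapped. Of the oligodendrocyte markers, miR-338-3p and miR-219a-2-3p held most reads and were lower in both CUMS libraries, whereas miR-219a-1-3p and miR-219b-3p overlapped. Inside the overlapping immune and endothelial lists, miR-142a-3p and miR-126a-3p were below both controls in both CUMS libraries, and the other markers overlapped. Most choroid plexus reads were of miR-204-5p, and miR-211-5p overlapped. Most liver and muscle reads were of miR-133a-3p, and miR-1a-3p and miR-122-5p had 0 to 8 reads in a library. The part of these lists and markers in the results below was not tested. Markers at 0 in some library numbered 1 for oligodendrocytes, 2 of 8 for sensory or epithelial cells, and 2 for liver and muscle. In bulk tissue, fewer cells of a type and less RNA per cell cannot be told apart.

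The 4 arms covered a wide range of levels, and the 2 hairpins were dominated by opposite arms. Reads of miR-582-3p numbered 9357 and 8975 in controls (libraries a and b, in this order throughout) and 12250 and 10246 in CUMS. It ranked between 67 and 77 of the 1038 miRNAs in the 4 libraries. Its partner arm miR-582-5p had 73 and 75 reads in controls and 119 and 104 in CUMS, which is a rank between 293 and 323.

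For miR-139 the 5p arm was the larger. miR-139-5p had 828 and 838 reads in controls and 1112 and 747 in CUMS. miR-139-3p had 109 and 94 reads in controls and 137 and 140 in CUMS. The order of the 4 arms was the same in every library, with miR-582-3p above miR-139-5p, then miR-139-3p, then miR-582-5p. The lowest 2 were close: in control library b, miR-139-3p stood at 8.72 CPM with a 95% Wilson interval of 7.12 to 10.7, and miR-582-5p at 6.96 CPM with 5.55 to 8.72, so their intervals overlapped. These intervals cover counting error only. Levels of different miRNAs also depend on how well each ligates to the adapters, and the order is one of reads.

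Summed over the 4 libraries, miR-582-3p had 110.0 times the reads of miR-582-5p, and miR-139-5p had 7.34 times the reads of miR-139-3p. Among 127 hairpins of the table with at least 50 reads on each arm, the 5p arm had more reads in 63 and the 3p arm in 64, and the median ratio of the larger to the smaller arm was 10.3. On this scale 28 hairpins were more unequal than Mir582 and 68 were more unequal than Mir139. The minimum of 50 reads leaves out hairpins whose minor arm was barely read. Arms were paired by name. Hairpins with a copy number in the name of a single arm, such as those of miR-181a and miR-128, were thus left out too.

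In terms of stress, all 4 arms had a higher mean in depression-like mice versus controls, by a fold of 1.11 to 1.51, and none passed the test after adjustment. The difference was larger for the minor arms, miR-582-5p and miR-139-3p, than for the major arms, as a description of the 4 values. Of the 719 miRNAs tested, limma called 0 at an adjusted p under 0.05, which is 0%, and 28 had an unadjusted p under 0.05. edgeR and DESeq2 also called 0 after adjustment, with 30 and 24 below 0.05 before it. Among all tested miRNAs 50.5% had a higher mean in CUMS, with a median log2 fold change of 0.0050, and the median of the 4 arms was 0.38.

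miR-582-5p, the minor arm from the Pde4d intron, had 71.4 and 75.0 normalised reads in controls and 112 and 110.2 in CUMS. Both libraries of the CUMS group lay above both controls, with means of 73.2 ± 2.52 and 111 ± 1.31 (SD, n = 2). The log2 fold change was 0.60 (SE 0.25, 95% interval 0.0033 to 1.19), with an adjusted p of 0.835 in limma. Its unadjusted p in limma, 0.0491, and its fold of 1.51 sit just inside the study's criteria of p under 0.05 and fold above 1.5. The study applied these criteria with DESeq, printed a p far below 0.05 for miR-582-5p, and listed it as upregulated. It also reported a significant increase by quantitative RT-PCR in 8 mice of each group, on tissue also used for sequencing. By these criteria in limma, 8 of the 719 miRNAs, 1.11%, were higher in CUMS, and miR-582-5p was the only arm of the 4 among them. With lower values counted too, 24 met them, 8 of them higher in CUMS, whereas on the CPM scale 14 of 21 were higher. It did not meet them in edgeR, where its log2 fold change of 0.57 is a fold under 1.5, in DESeq2, where the unadjusted p was 0.141, or without any one of the libraries. The SD of its log2 values within groups was 0.05 and 0.02, below the counting error of 0.13 to 0.17 that 73 to 119 reads allow on their own in a library. The median SD of 99 tested miRNAs within 2-fold of its level was 0.27.

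miR-582-3p, the major arm from the same hairpin, had 9153 and 8971 normalised reads in controls and 11534 and 10856 in CUMS. The groups did not overlap, and the means were 9062 ± 128.1 and 11195 ± 479.7 (SD, n = 2). The log2 fold change was 0.30 (SE 0.13, 95% interval -0.02 to 0.63), with an adjusted p of 0.835 in limma. At this depth counting error is small, 0.013 to 0.015 on the log2 scale in a library, and the SD between libraries was 0.02 in controls and 0.06 in CUMS. The SE of 0.13 is larger than these values give alone, since limma moderates the spread of each miRNA towards that of the others, and the median SD of 43 tested miRNAs within 2-fold of its level was 0.13.

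miR-139-3p, the minor arm from the Pde2a intron, had 107 and 94.0 normalised reads in controls and 129 and 148 in CUMS. Again both CUMS libraries were above both controls, with means of 100.3 ± 8.95 and 138.7 ± 13.7 (SD, n = 2). The log2 fold change was 0.46 (SE 0.24, 95% interval -0.12 to 1.05), with an adjusted p of 0.835 in limma.

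miR-139-5p, the major arm of miR-139, had 809.9 and 838 normalised reads in controls and 1047 and 791 in CUMS. One CUMS library was above both controls and the other below both, so the groups overlapped, with means of 824 ± 19.6 and 919 ± 181 (SD, n = 2). The log2 fold change was 0.14 (SE 0.20, 95% interval -0.33 to 0.62), with an adjusted p of 0.914 in limma. Without CUMS library a, its log2 fold change was -0.07. The spread of this arm between the CUMS libraries, an SD of 0.29 on the log2 scale, was far above its counting error of 0.04 to 0.05.

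**Figure D2:**
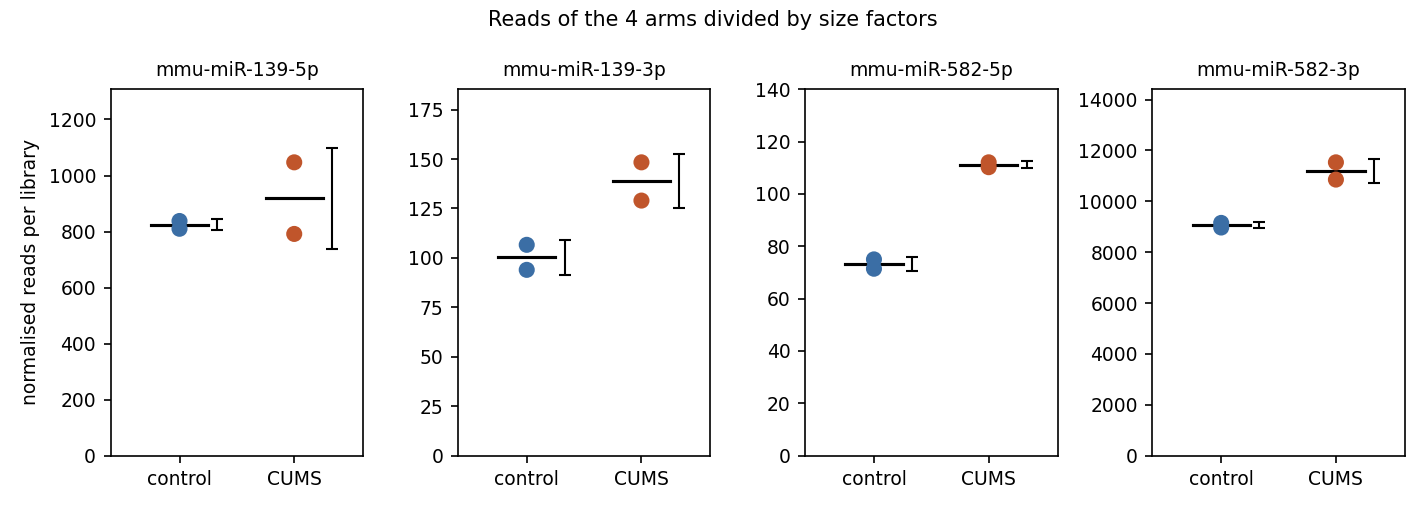
Reads divided by size factors (vertical axes, from 0) in each control library (blue) and CUMS library (red) for the 4 arms, with group means as horizontal bars and the SD of 2 libraries beside them. The CUMS points lie above the control points for miR-139-3p, miR-582-5p and miR-582-3p, and on both sides of them for miR-139-5p.

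Thus in 3 of the 4 arms the CUMS libraries were both above the controls. The same held for 120 of the 719 tested miRNAs, 16.7%. With 2 libraries against 2, an exact two-sided permutation test cannot go below 0.3333, and it gave that value for these 3 arms. The arms of a hairpin share a primary transcript and the 4 arms share their libraries, so they are not 4 independent observations. Without control library b, in which the miR-183 and miR-200 clusters were high, the log2 fold changes were 0.62 for miR-582-5p, 0.37 for miR-139-3p, 0.28 for miR-582-3p and 0.16 for miR-139-5p.

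**Figure D3:**
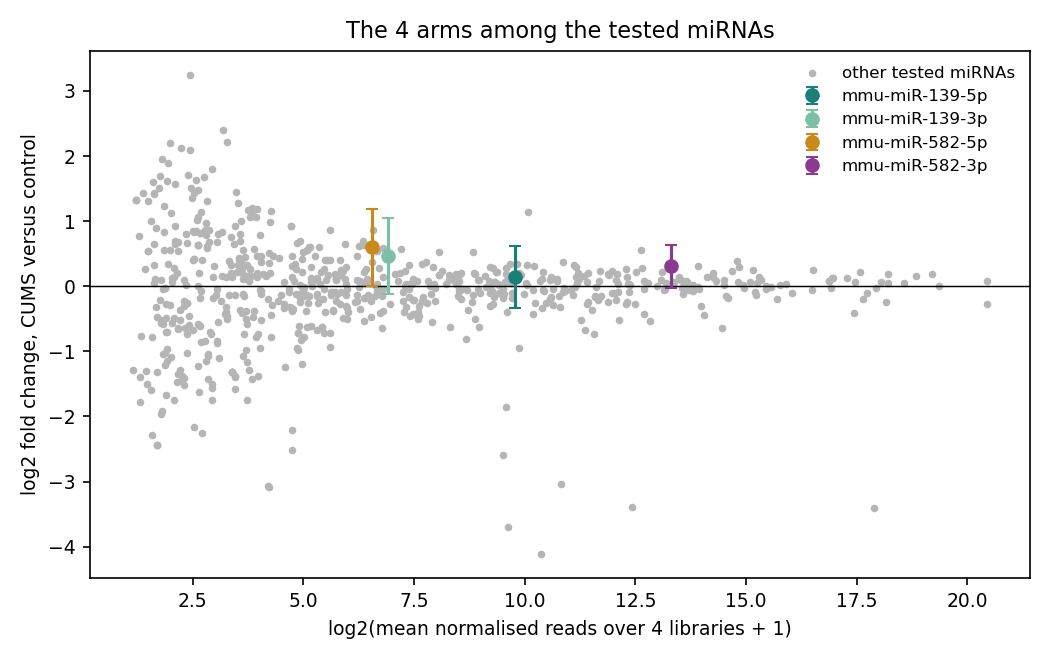
Log2 fold change of CUMS versus control (vertical axis) against the log2 mean of normalised reads plus 1 (horizontal axis) for the 719 tested miRNAs, with the 4 arms in colour and their 95% intervals from limma. The 4 arms lie between 0.14 and 0.60, and the interval of miR-582-5p alone is above 0, with 0.0033 as its lower end.

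Whether the arms of a hairpin moved together was read from their ratio within each library, in which depth cancels. For miR-582, reads of the 3p arm were 128.2 and 119.7 times those of the 5p arm in controls and 103 and 98.5 times in the CUMS libraries. The ratio was lower in both CUMS libraries, by a log2 difference of -0.30 (control 6.95 ± 0.07, CUMS 6.65 ± 0.04, SD, n = 2), and the exact two-sided permutation p was 0.3333, the smallest this design allows. The share of the 5p arm in miR-582 reads was 0.774% and 0.829% in controls, and 0.962% and 1.00% in CUMS. The 95% Wilson interval of control library a, 0.616% to 0.972%, overlapped that of CUMS library b, 0.830% to 1.22%. These intervals cover counting error only, and no single pair of libraries was tested.

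For miR-139, reads of the 5p arm were 7.60 and 8.91 times those of the 3p arm in controls and 8.12 and 5.34 times in the CUMS libraries. The groups overlapped, with a log2 difference of -0.32 (control 3.04 ± 0.16, CUMS 2.72 ± 0.43, SD, n = 2) and an exact two-sided permutation p of 0.667. CUMS library b held the lowest ratio, and without it the difference was -0.02.

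**Figure D4:**
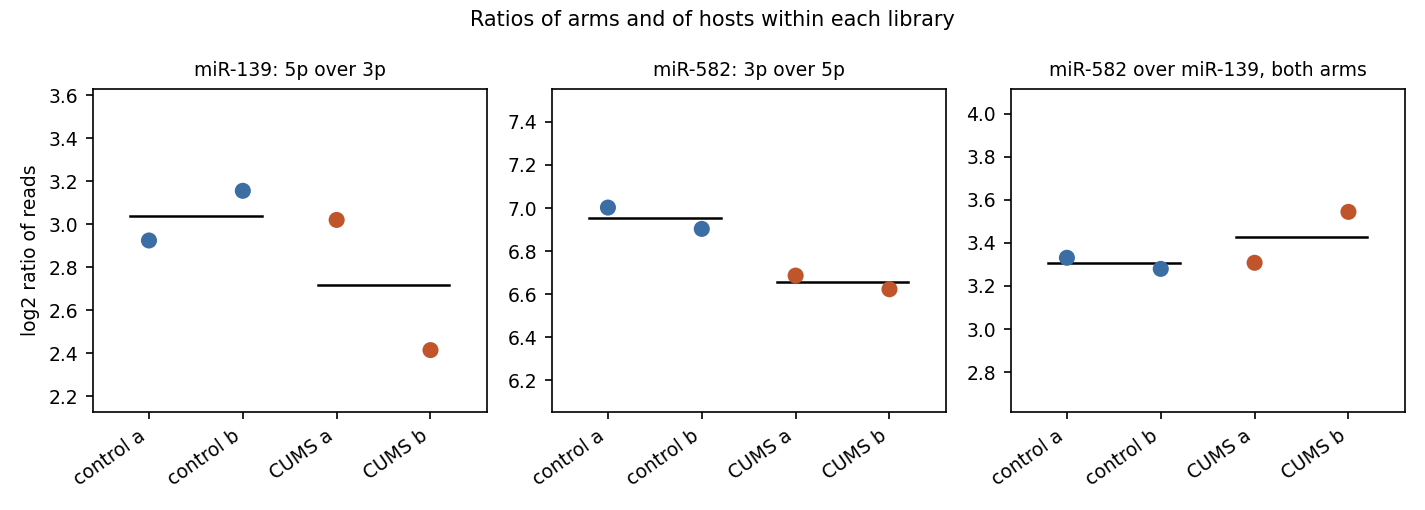
Log2 ratios of reads in each library: miR-139-5p over miR-139-3p, miR-582-3p over miR-582-5p, and both arms of miR-582 over both arms of miR-139. Horizontal bars are group means, and each axis spans the same log2 range without starting at 0. The groups are apart for the arms of miR-582 and overlap in the other ratios.

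The hosts were compared through the sum of both arms. miR-582 had 10.1 and 9.71 times the reads of miR-139 in the control libraries and 9.90 and 11.7 times in the CUMS libraries. The groups overlapped, with a log2 difference of 0.12 (control 3.31 ± 0.04, CUMS 3.43 ± 0.17, SD, n = 2) and an exact two-sided permutation p of 0.667. So in this ratio of summed reads, the difference between the groups did not exceed the spread between libraries. With 2 libraries against 2, the test cannot show that the miRNAs of the 2 hosts respond alike. Since each sum is mostly its major arm, it says little of the minor arms. The 5p arms alone, which share the letters UACAGU, gave a miR-582-5p to miR-139-5p ratio of 0.0882 and 0.0895 in controls and 0.107 and 0.139 in CUMS. These groups did not overlap, and the log2 difference was 0.46 (control -3.49 ± 0.02, CUMS -3.03 ± 0.27, SD, n = 2). The exact two-sided permutation p was 0.3333, the smallest this design allows. This ratio sets a minor arm over a major arm, so it does not compare the hosts as a whole.

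**Figure D5:**
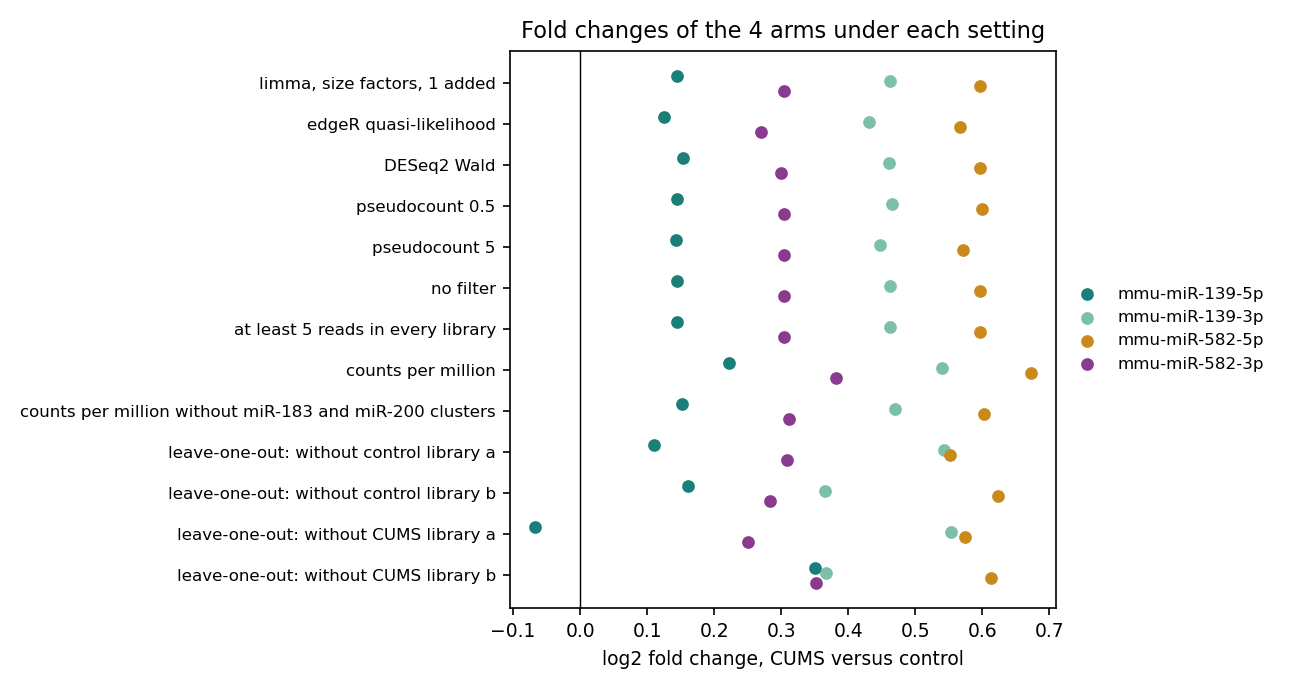
Log2 fold changes of the 4 arms (horizontal axis) under the test reported and each alternative test, scaling, filter and left-out library (rows). The points are to the right of 0 in every setting except miR-139-5p without CUMS library a, which stands at -0.07.

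No measured miRNA had the same bases 2 to 8 as any of the 4 arms, among the 884 of 1038 names matched to a RefSeq sequence. miR-101b-3p shares bases 2 to 7 with miR-582-5p, and also holds UACAGU in its seed. It had 10912 and 9420.2 normalised reads in controls and 10056 and 11127 in CUMS, which overlap, and its log2 fold change was 0.06 (SE 0.15). It is thus read far more often than either phosphodiesterase-hosted arm with these letters. miR-490-3p, from an intron of the muscarinic receptor gene Chrm2, shares bases 2 to 7 with miR-582-3p. It had 192 and 291 normalised reads in controls and 193 and 201 in CUMS, and a log2 fold change of -0.26 (SE 0.26). The groups overlapped, so neither partial relative of the miR-582 seeds changed beyond its spread.

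The miRNAs with the pattern most like each arm were found among 359 others with a mean of at least 50 reads, by the root mean square difference of log2 normalised reads centred on their own means over the 4 libraries. For miR-139-5p these were miR-134-3p (0.03), miR-337-5p (0.05) and miR-9-3p (0.05), which were also highest in CUMS library a and lowest in CUMS library b. For miR-139-3p they were miR-124-3p (0.04), miR-7220-5p (0.06) and miR-128-1-5p (0.06). For miR-582-5p they were miR-3085-3p (0.12), miR-344d-3-5p (0.12) and miR-7220-5p (0.13). For miR-582-3p they were miR-99a-5p (0.03), miR-132-3p (0.03) and miR-212-3p (0.05). The partner arm was not among the 3 nearest for any member: miR-139-3p ranked 228 for miR-139-5p and the reverse rank was 155, whereas miR-582-5p ranked 77 for miR-582-3p and the reverse rank was 10. Over 4 libraries these distances only describe the values, and for the minor arms they include counting error.

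Other miRNAs from introns of signalling genes did not share a direction. The list held arms of miRNAs from genes of glutamate, serotonin, acetylcholine and other signalling (Grid1, Htr2c, Chrm2, Arrb1, Ptk2 and others), 34 in the table, of which 31 were tested. Of these, 14 had a higher mean and 17 a lower mean in CUMS, with a median log2 fold change of -0.09. None of the 31 passed an adjusted p under 0.05 in limma, edgeR or DESeq2, and 2 had an unadjusted p under 0.05 in limma. Both CUMS libraries were above both controls for 5 of them and below both controls for 7, where 16.7% and 17.1% of all tested miRNAs were so. Arms of the same host were counted singly. Among the 7 were miR-448-3p, miR-448-5p, miR-764-3p and miR-1264-3p, all from Htr2c, whose other tested arms overlapped. The 7 also held the choroid plexus marker miR-204-5p and the oligodendrocyte marker miR-338-3p, so these counts are not independent of the marker lists above.

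The smallest unadjusted p of the list was that of miR-128-1-5p, from an intron of R3hdm1. It had 5379 and 4815 normalised reads in controls and 6738 and 8289 in CUMS, with a log2 fold change of 0.55 (SE 0.17) and an adjusted p of 0.835 in limma. Next came miR-1264-3p, from an intron of the serotonin receptor gene Htr2c, with 56.7 and 68.0 normalised reads in controls and 40.5 and 25.4 in CUMS. Its log2 fold change was -0.93 (SE 0.36), with an adjusted p of 0.835 in limma, the opposite sign of the 4 phosphodiesterase arms. miR-128-3p had the most reads of the list, between 159595 and 215452 in a library, and a log2 fold change of 0.06 (SE 0.15). Of the tested miRNAs placed inside a protein-coding gene on its strand, leaving out the 4 arms, 155 of 318 were higher in CUMS, and 155 of 294 were higher among those placed outside such genes. The other 103 tested miRNAs had no matched RefSeq position, or had several of which only some lay inside such genes, and were left out.

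The last question is where the seeds of the 4 arms could pair among phosphodiesterase messages, and it was searched after the values were seen. The 7 letters complementary to bases 2 to 8 were looked for on the sense strand of the longest annotated 3′ UTR of 20926 genes. UTR length was not taken into account, so the shares below only describe presence and were not tested. ACTGTAG, for miR-139-5p, was in 10.98% of all UTRs and in 5 of 24 cyclic nucleotide phosphodiesterase genes (Pde1c, Pde3a, Pde4a, Pde6h and Pde10a). CGTCTCC, for miR-139-3p, was in 3.13% and in 2 of 24 (Pde4c and Pde10a). AACTGTA, for miR-582-5p, was in 12.6% and in 3 of 24 (Pde1a, Pde3a and Pde7a), and it overlaps the run for miR-139-5p by 6 letters. The run for miR-582-3p is ACAGGTT, which was in 9.27% and in 3 of 24 (Pde1c, Pde4d and Pde10a).

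The 3′ UTR of Pde2a, of 1164 bases, held none of the 4 runs. That of Pde4d, of 2117 bases, held 1, the ACAGGTT of its own intronic miR-582-3p. It is at bases 1452 to 1458 of the UTR, chr13:109952796-109952802 on the plus strand, shown with the match in capitals.
Pde4d: ggaaaaagaaACAGGTTgtcagggtag
Only the longest UTR, that of Pde4d-207, reaches these bases, 1 of 12 coding transcripts, and Pde4d-207 is one of those that start downstream of Mir582. The match is a description of letters, depends on the RefSeq start of miR-582-3p, and was not tested as a site.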

How the data were processed

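Small RNA of the mPFC was measured in 2 control and 2 CUMS libraries. The authors selected short RNAs on gels, ligated adapters, removed adapter, low-quality and other noncoding RNA reads, matched the rest without mismatch to precursors in miRBase, and gave each mature miRNA a count. The submitters' processing notes name Bowtie, DESeq and mm10, and the versions for miRNAs are not given in the sources used here. The deposited values are a signal: for each group, the mean over its libraries of counts that the authors normalised with DESeq. Its columns were assigned to control and CUMS because the paper's list of changed miRNAs prints these values under those headings. The table also holds the authors' fold change, its log2, and unadjusted and adjusted p-values, which were not used. It has no columns of single samples.

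Library reads were solved from each mean as 2 whole numbers, each weighted by a step fixed for its library. In this way 100% of the 1038 values of each group gave whole reads within a relative tolerance of 1e-09. For 2 control miRNAs, neither of them a member, a second pair came close. Within a group, the letters a and b stand for its libraries, whose replicate numbers are unknown. Median-of-ratios size factors, from 650 miRNAs detected in all libraries, were 1.02, 1.00, 1.06 and 0.944.

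The test was limma 3.58.1 with trend on log2(reads divided by size factor + 1) in R 4.3.3, fitted to the 719 miRNAs that had 5 reads or more in 1 library or more, by group alone, and adjusted over all of them by the Benjamini-Hochberg method. The fold changes are thus on the log2(value + 1) scale. Alternatives were edgeR 4.0.16 (quasi-likelihood, TMM), DESeq2 1.42.0, 0.5 or 5 in place of 1, no filter, at least 5 reads in every library, CPM with and without the miR-183 and miR-200 clusters, and leaving out each library. Ratios were compared with exact permutation tests. The scripts were tested on simulated data. Python 3.11.15 with scipy 1.17.1 gave intervals, and GENCODE M21 and RefSeq gave positions and sequences. The 4 libraries held 9589323 to 10783592 reads, so 3 reads, taken as the floor, are 0.278 to 0.313 CPM. Reads carried no molecular identifiers.

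The members, the lists and the markers were chosen with earlier results of these data known. Beside the members, the rule named miRNAs with the same bases 2 to 8, the 3 of the nearest pattern to each member, and of the signalling list the 2 with the smallest unadjusted p and the 1 with the most reads. miR-101b-3p and miR-490-3p, the phosphodiesterase genes with seed matches, and the seed search were added after the values were seen. The messenger RNA libraries were not analysed here.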

Additional observations from a re-analysis of the deposited data

How the results depend on the processing

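The 12 alternatives kept the direction of miR-139-3p, miR-582-5p and miR-582-3p, and none brought an arm past an adjusted p under 0.05. Their log2 fold changes ranged from 0.37 to 0.55, 0.55 to 0.67 and 0.25 to 0.38, with adjusted p from 0.550 to 0.998 in limma, edgeR and DESeq2. mmu-miR-139-5p had a log2 fold change of -0.067 without CUMS library a and up to 0.35 without CUMS library b. miR-582-5p kept its unadjusted p under 0.05 and fold above 1.5 in 3 of 12 alternatives, namely 0.5 added, no filter and CPM. The count past these criteria was 24, was 51 with no filter, and ranged from 9 to 45 over the left-out libraries, with 9 without control library b and 45 without CUMS library a. Of the 24, 8 were higher in CUMS. CPM gave 14 higher of 21, and a median log2 fold change of 0.08 over all miRNAs, edgeR 4 of 24 and DESeq2 3 of 18. The count with an adjusted p under 0.05 ranged from 0 to 7 over the left-out libraries, 7 without control library a, none of them a member. The difference in the miR-582 to miR-139 ratio was 0.12 and became 0.46 with the 5p arms alone, in which the major arm of miR-582 has no part. Over the left-out libraries it ranged from 0.0026 to 0.24, that of the miR-139 arms from -0.63 to -0.02, and that of the miR-582 arms from -0.35 to -0.25. In other cases the cause was not tested. No paired analysis was possible because the libraries recovered from group means carry no replicate number. With 1 library left in a group, that library is assumed to vary like the other group. Depth limits the minor arms, at 73 to 140 reads in a library.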
